A study of Homo sapiens with 6 samples.

Results

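The NDRG family (N-myc downstream regulated genes) is described here as it was measured by RNA sequencing of T47D cells, an established breast cancer line of luminal type, in normoxia and in hypoxia. Its members are NDRG1, NDRG2, NDRG3 and NDRG4, found by their gene symbols, and all 4 were present among the 27754 genes counted. The family was chosen by the measured difference of NDRG1 between hypoxia and normoxia in these same libraries, in which it was known to be strongly higher in hypoxia, and the other members are its paralogues. The contrast therefore selected the family, and for the members it is given with its error and without a test.

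The study asked how stress such as hypoxia changes gene expression and plasticity in breast cancer cells. Normoxia cells were the controls and were kept at 20% O2, and hypoxia cells were kept in a chamber at 0.5% O2 for 48 h according to the labels, with 3 libraries in each group. All cells were of the same line, with no engineered allele named, and were grown as adherent cultures in RPMI medium with serum. The text of the study gives a different O2 level for this experiment, and the level of the labels is used here. The study's text describes its data as coming from separate experiments and its hypoxia and normoxia samples as paired. The labels do not say whether the replicates were separate cultures, and errors and p-values cover the spread between these libraries.

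NDRG proteins share an alpha/beta hydrolase fold but are not known to act as hydrolases. NDRG1, named for its repression by N-myc, is a stress protein that hypoxia-inducible factors (HIF) and iron depletion induce in many cell types, and it is phosphorylated by the kinase SGK1 and then by GSK3. NDRG2 is repressed by MYC and is best known from astrocytes and as a candidate tumor suppressor. NDRG3 is known to be controlled as a protein, since the oxygen-dependent prolyl hydroxylase EGLN1 (PHD2) and VHL mark it for degradation and lactate stabilizes it in hypoxia. NDRG4 is mostly expressed in brain and heart.

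The libraries held between 32989104 and 40943424 counts, apart from hypoxia replicate 3 with 89883409. Replicate 3 of both conditions stood apart from replicates 1 and 2. Within a condition, pairs with replicate 3 differed by a chi-square per degree of freedom of 36.8 to 76.6 over genes, against 6.48 to 8.50 for the other pairs. The luminal label was checked on 9 markers, and all 9 passed the filter on low counts. Their summed level was 13959 to 18121 counts-per-million (CPM) in normoxia and 10193 to 13471 CPM in hypoxia, with the estrogen receptor ESR1 and the progesterone receptor PGR among the 4 that were lower in hypoxia. Of 13 markers of basal, stromal, immune and endothelial cells, 8 were too low to test, and none was at 0 in all libraries, although PTPRC was at 0 in the normoxia group. The summed level of these 13 was 87.1 to 111 CPM in normoxia and 86.6 to 119 CPM in hypoxia, mostly COL1A1. VIM, a mesenchymal marker, had 395 counts in normoxia replicate 3 and 1001 in hypoxia replicate 3, against 7 to 35 in the other libraries, and LDHB was likewise highest in the replicate 3 libraries, with 24 and 64 counts against 0 to 5. CD68 and PDGFRB were the 2 that were higher in hypoxia. The part of these shifts in the values of the members was not tested.

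Positions refer to GRCh37 and to the exons over which reads were counted. NDRG2 spans 21484922 to 21539031 on the reverse strand of chromosome 14, with 3472 exonic bases. NDRG3 spans 35280169 to 35374541 on the reverse strand of chromosome 20, with 3024 exonic bases, and NDRG4 spans 58497549 to 58547523 on the forward strand of chromosome 16, with 4311 exonic bases. Each of the 4 members lies on a chromosome of its own, and the locus of NDRG1 is given with its values. Only NDRG2 has other genes inside its span or, for ARHGEF40, partly inside it. It shares 8 exonic bases with MIR6717 and none with ARHGEF40, RNASE7, RNASE8, RNASE13 or TPPP2. The exons of the members thus overlap other counted exons at no more than these 8 bases.

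RefSeq promoter windows, which reach from 250 bases before a transcript start to 50 bases after it, were available for NDRG2 (5 starts) and NDRG4 (4 starts) in GRCh38.p14, and there was no entry for NDRG1 or NDRG3. They were searched on both strands for ACGTG and GCGTG, the forms of the core motif bound by HIF, and for CACGTG, the E-box bound by MYC, which contains ACGTG. Neither gene had ACGTG or CACGTG in any window, whereas these letters occur in 21.4% and 7.26% of all 35116 RefSeq windows. GCGTG occurred in 3 of the 5 NDRG2 windows and in 1 of the 4 NDRG4 windows, against 36.5% of all windows. Of the 3 NDRG2 windows, 2 overlap and hold the same match, so that there are 2 distinct matches. The NDRG4 window around the start at position 58463715 held 4 matches, and 1.63% of all windows held at least 4. This window was 83.0% G and C, the highest of the windows searched. The share among windows of like G and C content was not counted. The matches are shown on the strand of the gene with the motif in capitals, which reads CACGC where GCGTG lies on the opposite strand.
NDRG4 chr16:58463544-58463564: gcggaagcCACGCgcgaggga
NDRG4 chr16:58463628-58463648: gccaaaccCACGCgggcacgc
NDRG4 chr16:58463636-58463656: cacgcgggCACGCccccgcgg
NDRG4 chr16:58463690-58463710: gccgcgggCACGCggaggggc
NDRG2 chr14:21025168-21025188: aaggggggGCGTGtttactgg
NDRG2 chr14:21071015-21071035: ggcagtgtCACGCcccctggt
A match is a run of letters and not a measured site, and counts per gene do not show which start was used.

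In normoxia NDRG3 was the most abundant member and NDRG1 a minor one, and in hypoxia this order was turned. NDRG1 went from the middle of all tested genes to near the top, NDRG3 was lower by 24.1% and NDRG2 by 12.5%, and NDRG4 went from a few counts per library to several times that level. All 4 members were among the 15657 genes kept by edgeR's low count filter. NDRG4 is low enough in normoxia that it passed through its hypoxia libraries. These are bulk libraries, in which fewer cells expressing a gene and less of its RNA per cell cannot be told apart.

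NDRG1 spans 134249414 to 134309547 on the reverse strand of chromosome 8 (GRCh37), with 3478 exonic bases. Its normoxia libraries (replicates 1, 2 and 3) held 890, 956 and 643 counts, and its hypoxia libraries 17078, 18078 and 46900. After TMM normalization this was 22.5, 25.7 and 20.8 CPM in normoxia and 422, 494 and 513 CPM in hypoxia. The spread within a condition was small beside the gap between the conditions. The means were 23.0 ± 2.49 CPM (SD, n = 3) and 476 ± 48.1 CPM (SD, n = 3). The fitted log2-fold change was 4.37, with a standard error of 0.12 and a 95% interval of 4.09 to 4.66, or 20.7-fold. Libraries with the same replicate number differed by 18.7-fold, 19.2-fold and 24.7-fold. The transcript took 0.00195% to 0.00252% of the counts of a normoxia library and 0.0443% to 0.0522% of a hypoxia library. By level per kilobase of exon its mean ranked 7893 of 15657 tested genes in normoxia and 321 in hypoxia. By log2-fold change it ranked 144 from the top.

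The counts of NDRG3 were 4451, 4234 and 3640 in normoxia and 3496, 3173 and 8048 in hypoxia, of which the last came from the library with the greatest depth. On the CPM scale the values were 113, 114 and 118 in normoxia and 86.4, 86.7 and 88.0 in hypoxia. This gene varied least among the members, with a coefficient of variation of 2.22% in normoxia and 1.02% in hypoxia. The means were 115 ± 2.54 CPM and 87.1 ± 0.884 CPM. On the log2 scale the fit put hypoxia at -0.40 relative to normoxia (standard error 0.07, 95% interval -0.55 to -0.25). The NDRG3 transcript was therefore lower in hypoxia, the condition in which its protein is known to be stabilized, and protein was not measured in these libraries. Changes this small depend on the scaling: with upper-quartile factors, which raised the median over all tested genes by 0.157, the value for NDRG3 was -0.24. Relative to that median it was -0.43 under both scalings.

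NDRG2 had 425, 433 and 338 counts in normoxia and 381, 334 and 967 in hypoxia. This corresponded to 10.8, 11.6 and 10.9 CPM in normoxia and 9.41, 9.13 and 10.6 CPM in hypoxia. The deepest hypoxia library came within 0.188 CPM of the lowest normoxia library. The means were 11.1 ± 0.464 CPM and 9.71 ± 0.768 CPM. The fitted log2-fold change, -0.19 with a standard error of 0.11, had a 95% interval from -0.45 to 0.07 that includes no change. With upper-quartile factors it was -0.037. Without replicate 3 of both conditions the interval was -0.51 to -0.03.

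NDRG4 was barely detected in normoxia, with 12, 13 and 1 counts, and had 89, 53 and 112 counts in hypoxia. On the CPM scale it had 0.304, 0.349 and 0.0323 in normoxia and 2.20, 1.45 and 1.23 in hypoxia. The normoxia libraries disagreed among themselves. The single count of normoxia replicate 3 has an exact 95% Poisson interval of 0.0253 to 5.57 counts and lies under the floor of 3 counts, which is 0.0909 CPM in that library. Intervals and floors of this kind cover counting error only, since the reads carry no molecular identifiers. The means were 0.229 ± 0.171 CPM and 1.62 ± 0.510 CPM. The fitted log2-fold change was 2.75, with a standard error of 0.53 and a 95% interval of 1.53 to 3.97. Without normoxia replicate 3 the log2-fold change was 2.29. Even in hypoxia its mean level per kilobase ranked 14208 of 15657 tested genes.

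**Figure D1:**
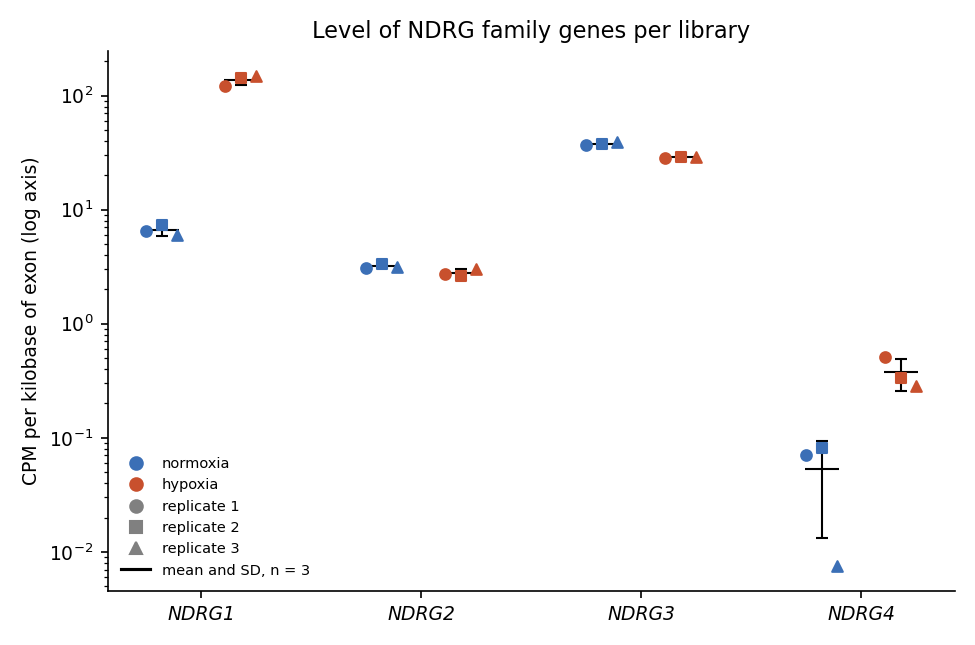
Level of each NDRG gene in each library as CPM per kilobase of exon (log axis), with normoxia in blue, hypoxia in red, a symbol for each replicate number, and the mean and SD (n = 3) in black. NDRG1 moves from 6.61 to 137, NDRG3 from 37.9 to 28.8 and NDRG2 from 3.20 to 2.80, while NDRG4 stays at or under 0.510 in all libraries.

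Levels were compared between members only per length, as CPM per kilobase of exon. In all 3 normoxia libraries the order was NDRG3, NDRG1, NDRG2 and NDRG4, with means of 37.9 ± 0.841, 6.61 ± 0.716, 3.20 ± 0.134 and 0.0530 ± 0.0398 CPM per kilobase (SD, n = 3). The library values of neighbours in this order did not overlap. In all 3 hypoxia libraries the order was NDRG1, NDRG3, NDRG2 and NDRG4, with 137 ± 13.8, 28.8 ± 0.292, 2.80 ± 0.221 and 0.377 ± 0.118 CPM per kilobase, again without overlap between neighbours. NDRG3 exceeded NDRG1 by 5.09-fold to 6.51-fold in the normoxia libraries, and NDRG1 exceeded NDRG3 by 4.25-fold to 5.07-fold in the hypoxia libraries. The summed level of the family went from 47.8 ± 0.771 to 169 ± 14.1 CPM per kilobase.

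As a share of that sum, NDRG1 took 13.8%, 15.2% and 12.4% in the normoxia libraries (replicates 1, 2 and 3) and 79.2%, 81.8% and 82.0% in those of hypoxia. NDRG3 took 77.7% to 81.0% in normoxia and 16.2% to 18.7% in hypoxia. For NDRG2 the share went from 6.69% ± 0.198 to 1.66% ± 0.132, although its own level changed little. NDRG4 stayed at or under 0.333% in all libraries.

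**Figure D2:**
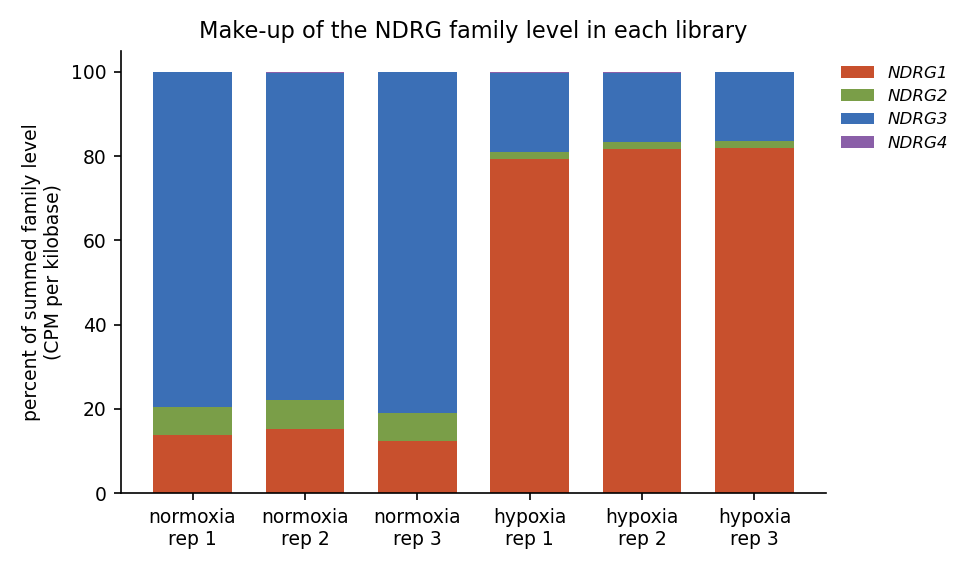
Make-up of the family in each library as the percent of the summed CPM per kilobase taken by each NDRG gene (stacked bars, 1 per library). NDRG3 fills 77.7% to 81.0% of the normoxia bars and NDRG1 fills 79.2% to 82.0% of the hypoxia bars.

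Across all 15657 tested genes, 59.5% passed edgeR's quasi-likelihood test at a Benjamini-Hochberg adjusted p of 0.05, with 30.4% higher and 29.1% lower in hypoxia. By the same rule 3 of the 4 members passed, 2 higher (NDRG1 and NDRG4) and 1 lower (NDRG3). This count was 2 without both libraries of replicate 1, where NDRG3 did not pass, and 4 without both libraries of replicate 3, where NDRG2 also passed. Because the contrast chose the family, nothing is read from these counts. The median log2-fold change of all tested genes was 0.03. Of all genes passing, 51.1% were higher in hypoxia, and 64.5% with upper-quartile factors.

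**Figure D3:**
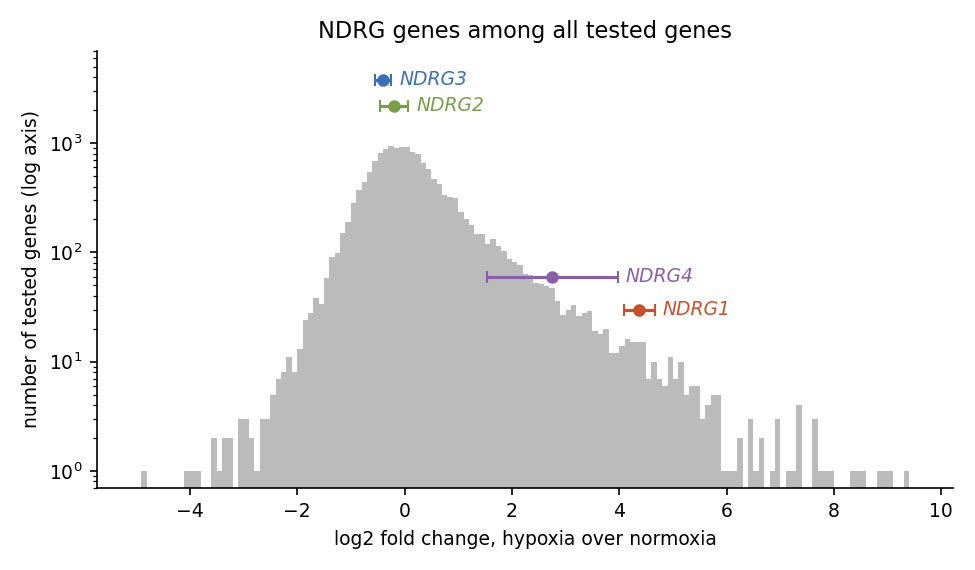
Log2-fold change of all 15657 tested genes, hypoxia over normoxia (grey histogram, count of genes on a log axis), with each NDRG gene as a point with its 95% interval placed at an arbitrary height. NDRG1 (4.37) and NDRG4 (2.75) lie on the right flank and NDRG2 (-0.19) and NDRG3 (-0.40) in the body of the distribution.

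The genes most like each member were taken as those, among 12664 other tested genes (12665 for NDRG4) that averaged 100 counts or more, whose log2(CPM + 0.5) profile over the 6 libraries had the smallest root mean square difference from that of the member after each profile was centred. For NDRG1 these were VEGFA (0.118), ANGPTL4 (0.128), CYP26A1 (0.155), DDIT4 (0.164) and TMEM45A (0.168). VEGFA is an angiogenic factor, ANGPTL4 an inhibitor of lipoprotein lipase, CYP26A1 a retinoic acid hydroxylase and DDIT4 an inhibitor of mTORC1 signaling. VEGFA had 39.2 ± 6.51 CPM in the normoxia group and 804 ± 35.8 CPM in the hypoxia group, and its log2-fold change was 4.36 next to the 4.37 of NDRG1. CYP26A1 and TMEM45A had larger log2-fold changes, 5.72 and 5.43 in the fit, where no such constant is added to the CPM.

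For NDRG3 the 5 nearest profiles were GK5, COIL, WDR6, SIAH2 and CYHR1, at differences of 0.00834 to 0.0194 and with log2-fold changes of -0.43 to -0.38. SIAH2 is a ubiquitin ligase that acts on the prolyl hydroxylases of the HIF pathway. For NDRG2 they were MOGS, GAS8, VSIG10, FTCDNL1 and ORAI2, at 0.0161 to 0.0330, and none of these 5 passed the test. The nearest to NDRG4 were DUSP10, ENC1, SLC7A11, SEMA6D and SUSD5, at 0.0830 to 0.127. Their log2-fold changes of 1.54 to 2.04 are smaller than the fitted value of NDRG4, since adding 0.5 to CPM below 1 compresses the profile of NDRG4. With 6 libraries in 2 conditions, many genes share such a profile.

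Genes known to act with the NDRG family, or to respond with it, were examined in 4 lists drawn up from their known roles. The lists were chosen with earlier results of these data known. The first holds 23 genes that respond to hypoxia and are often measured with NDRG1, all of them tested. In hypoxia 21 were higher and 0 lower in edgeR's quasi-likelihood test, beside 30.4% higher among all tested genes, and the median log2-fold change was 2.17 against 0.03 over all tested genes. The list was chosen for genes that respond to hypoxia, so nothing is read from this count or median. Carbonic anhydrase CA9, which regulates pH, had the largest log2-fold change of this list, 5.29 (standard error 0.38, adjusted p = 6.16e-05), from 0.610 ± 0.380 to 24.7 ± 5.92 CPM. Among genes averaging 100 counts or more, VEGFA and DDIT4 followed, with 4.36 and 4.20 (adjusted p = 5.16e-06 and 4.20e-06 in edgeR's test). NDRG1, with 4.37, lay within the standard error of VEGFA, and both had 4.37 with the replicate block. The glucose transporter SLC2A3, named after its value was seen, had 4.21 from 3 to 5 counts in normoxia and 79 to 183 in hypoxia. The glycolytic enzymes PGAM1 (0.12) and TPI1 (0.30) did not pass, and both passed with upper-quartile factors (0.28 and 0.46). TPI1 passed with the replicate number as a block (adjusted p = 8.69e-04, against 0.0557 without it in edgeR's test).

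The second list holds 17 regulators known to act on NDRG genes or on HIF, of which 16 were tested. Of these, 7 were higher and 2 lower, with a median log2-fold change of 0.31, so that 9 of 16 passed, a share close to the 59.5% of all tested genes. The oxygen sensors EGLN3 and EGLN1 were among the highest. EGLN3 (PHD3) was higher by 5.51 on the log2 scale (adjusted p = 6.04e-05), with 3.83 ± 0.986 CPM in normoxia and 173 ± 86.0 CPM in hypoxia. EGLN1 (PHD2) was higher by 1.68 (adjusted p = 5.11e-05), with 56.2 ± 2.33 and 180 ± 26.4 CPM. VHL, which recognizes hydroxylated HIF, was at 109 ± 8.95 and 112 ± 7.21 CPM, a log2-fold change of 0.04 with a 95% interval of -0.17 to 0.24. The HIF1A transcript fell by 1.37 on the log2 scale (adjusted p = 1.42e-04), with 136 ± 4.78 CPM in normoxia and 52.6 ± 8.88 CPM in hypoxia, although 27.8% of its exonic bases are shared with the antisense gene HIF1A-AS2.

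The family is named after N-myc, the product of MYCN. No library held more than 13 counts of MYCN, which was not tested. MYC, which represses NDRG2, was at 63.7 ± 10.3 and 79.1 ± 8.72 CPM, a log2-fold change of 0.31 (adjusted p = 0.0731 in edgeR's test, 0.0427 with the replicate block and 0.0121 with upper-quartile factors). MYCL was higher by 1.76 on the log2 scale (adjusted p = 2.32e-04), with 4.35 ± 1.11 CPM in normoxia and 14.8 ± 1.00 CPM in hypoxia. EGLN2 shares 86% of its exonic bases with a readthrough gene and had few counts, so its value is uncertain.

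The third list holds 13 kinases and subunits that lead to the phosphorylation of NDRG1, namely SGK1 to SGK3, GSK3, AKT, PDPK1 and the mTORC2 complex. All 13 were tested, and 2 were higher and 9 lower, beside 30.4% higher and 29.1% lower among all tested genes. The median log2-fold change was -0.34 against 0.03 over all tested genes. SGK1, the kinase best known for acting on NDRG1, had 65, 104 and 27 counts in normoxia and 17, 12 and 30 counts in hypoxia. It averaged 1.77 ± 0.967 CPM in normoxia and 0.359 ± 0.0530 CPM in hypoxia and fell by 2.32 on the log2 scale, with a standard error of 0.44 (adjusted p = 0.00269). MTOR, MAPKAP1 and AKT1 had log2-fold changes of -0.87, -0.54 and -0.52 (adjusted p = 2.29e-04, 0.00277 and 0.00243 in edgeR's test). RICTOR, the defining subunit of mTORC2, was higher by 0.40 (adjusted p = 0.0151). SGK2, named after its value was seen, was the other higher gene, with 8 to 19 counts in normoxia and 70 to 92 in hypoxia. SGK3 shares 88% of its exonic bases with the readthrough gene C8orf44-SGK3 and had 10 to 51 counts, so its fall is uncertain. Without both libraries of replicate 1, 5 of these genes passed in place of 11, and 7 without both libraries of replicate 2. Fewer of all genes passed in these fits too. Without replicate 1, 2648 were higher and 2191 lower, and without replicate 2, 3554 and 3133, against 4765 and 4551 in the main fit. With upper-quartile factors 8 passed, and AKT2, PDPK1 and GSK3A, 3 of the 9 lower genes, did not.

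The fourth list holds 16 proteins that NDRG proteins are known to bind or act on, and 15 were tested. Here 4 were higher and 3 lower, so that 7 of 15 passed beside 59.5% of all tested genes, and the median log2-fold change was 0.01. LDHA, which makes the lactate known to bind NDRG3, was higher by 1.66 on the log2 scale (adjusted p = 3.35e-05), with 719 ± 59.8 CPM in normoxia and 2274 ± 91.4 CPM in hypoxia. LDHB was listed at 0 to 64 counts per library and was not tested. The growth factor receptor EGFR and its inhibitor ERRFI1 were higher by 1.53 and 0.81 (adjusted p = 1.74e-04 and 2.52e-04 in edgeR's test), and BRAF was the other higher gene, with 0.51. The phosphatase subunit PPP2CA, the receptor ERBB2 and the kinase MAPK3 were lower, at -0.74, -0.47 and -0.42, although MAPK3 did not pass with upper-quartile factors (adjusted p = 0.0659 in edgeR's test). RAB4A, with which NDRG1 acts in the recycling of E-cadherin and which shares 37% of its exonic bases with SPHAR, and CTNNB1 had values of 0.10 and 0.01 that did not pass, and RAB4A passed with upper-quartile factors (0.26). Without both libraries of replicate 1, 4 genes of this list passed, and likewise without both libraries of replicate 2. In both fits fewer of all genes passed as well, as given for the third list.

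**Figure D4:**
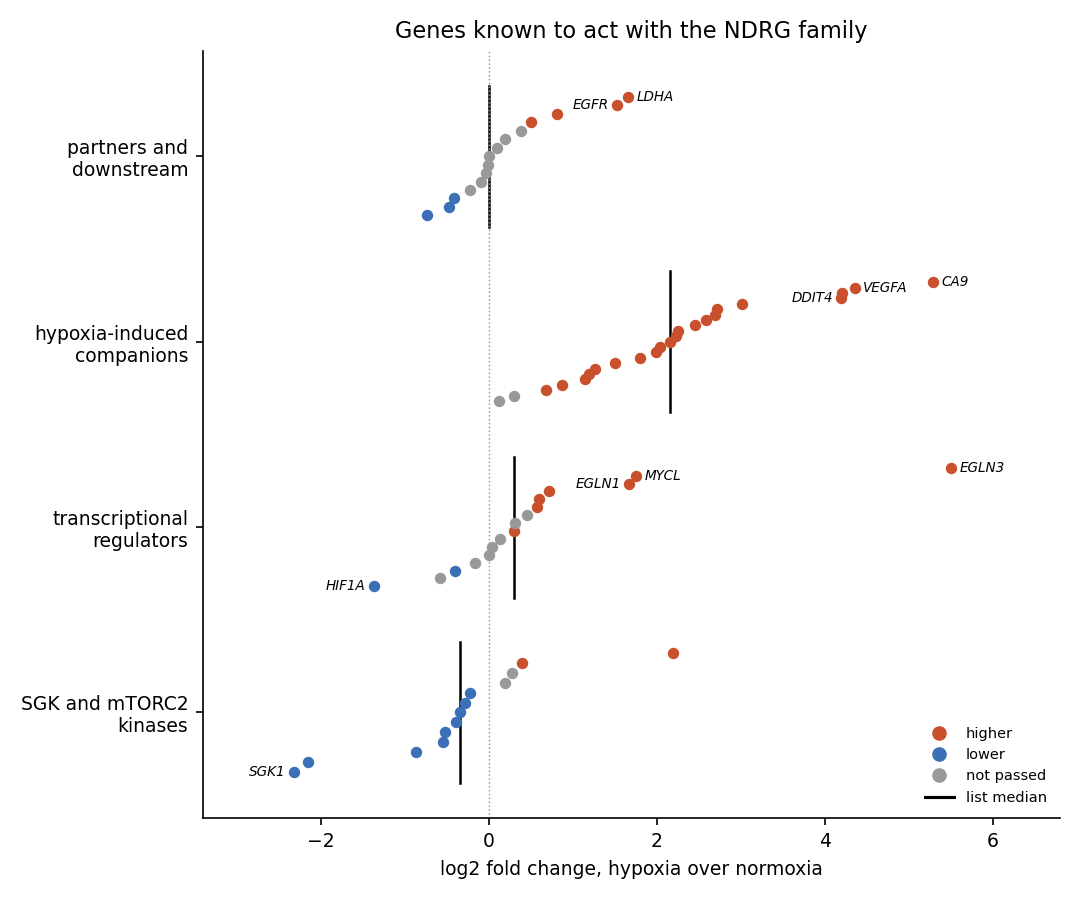
Log2-fold change, hypoxia over normoxia, of each tested gene in the 4 lists (points, spread vertically by rank within a list), coloured by whether the gene passed an adjusted p of 0.05 as higher (red) or lower (blue) or did not pass (grey), with the list median as a black line. The medians are -0.34 for the kinases, 0.31 for the regulators, 2.17 for the hypoxia-induced companions and 0.01 for the partners.

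Genes overlapping a member were left out of its neighbours, which applied to ARHGEF40 at NDRG2, a tested gene. The 2 nearest remaining tested genes on each side of each member, 16 genes in all, gave 3 higher, 6 lower and 7 that did not pass. Thus 9 passed, a share close to the 59.5% of all tested genes. Their median log2-fold change was 0.03, as over all tested genes. Around NDRG1, the sialyltransferase gene ST3GAL1, 158 kb away, was higher by 1.10 (adjusted p = 4.81e-05), and LRRC6, 562 kb away on the other side, by 0.96 (adjusted p = 0.00794). PHF20L1, which lies closer than LRRC6 on that side, had 0.21 and did not pass, and neither did ZFAT. Next to NDRG3, DSN1 and SOGA1 were lower on one side (-0.62 and -0.96). On its other side SLA2, at 5.55 kb, was higher by 3.29 from very few counts (0.0973 ± 0.0605 to 1.04 ± 0.397 CPM), and C20orf24, which shares 62.4% of its exonic bases with a readthrough gene, had -0.77. Around NDRG4, SETD6 at 1.86 kb and GINS3 at 57.5 kb were lower (-0.70 and -0.83), while CNOT1 and CCDC113 did not pass. SETD6 shares 19.5% of its exonic bases with CNOT1, a gene on the opposite strand. CNOT1 held 76281 counts over all libraries against 6457 for SETD6, so the value of SETD6 is uncertain. Of the neighbours of NDRG2, ZNF219 was lower (-0.60) and SLC39A2, LOC101929718 and LINC00641 did not pass.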

How the data were processed

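RNA sequencing libraries of T47D cells, 3 from normoxia and 3 from hypoxia, were used as deposited. The libraries were stranded and mRNA-based per the labels. Adapter trimming was done with Skewer and alignment to GRCh37 with STAR, and the authors deposited raw featureCounts counts per RefSeq gene. The labels list STAR 2.5.2a and featureCounts 1.5.1. For the counting, the strand option and the handling of multi-mapping reads were not given in the sources used here. The deposited files also hold the exonic length of each gene.

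The software was edgeR 4.0.16 and DESeq2 1.42.0 under R 4.3.3. Genes were kept by filterByExpr (minimum count 10, minimum total 15) and scaled by TMM, and the quasi-likelihood test of edgeR was applied. The model held only the condition, and p-values were adjusted by the Benjamini-Hochberg method with a threshold of 0.05. The study's methods name edgeR's exact test, run here as an alternative together with DESeq2, RLE and upper-quartile factors, no filter, a replicate block, and libraries left out singly or by replicate number. CPM are TMM-normalized, with mean ± SD of 3 libraries. Standard errors were derived from the same fit, as the absolute log2-fold change divided by the square root of the F statistic. The 95% intervals are symmetric around the log2-fold change and use the t distribution. How well they hold at counts as low as those of NDRG4 was not tested.

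The members and gene lists were chosen with earlier results of these data known. Named genes were the members, up to 3 higher and 3 lower genes per list with the largest change among those passing with a mean of at least 100 counts, SGK1, MYC, MYCN, HIF1A and VHL, the 5 most similar profiles of each member, and the 2 nearest tested genes on each side. Others named were chosen after their values were seen, and some listed genes are counted but not reported here by name. Of the exon ends of the members, 93.9% to 97.9% were in the GENCODE annotation of GRCh37.

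Deviations from the condition means were shared by libraries of equal replicate number (correlations across genes of 0.426, 0.495 and 0.624). Replicate 3 stood apart in both conditions, and deviations cancel out within a condition. These values therefore cannot show a pairing of replicates 1 and 2, and libraries of unequal number were not compared. The study's text describes the samples as paired, and values with the block are given where a call changed. The errors, intervals and calls of the main fit leave this pairing out. The fit was tested on simulated counts for 15477 genes, with 99 changed by 1 on the log2 scale and 98 changed by 2. It recovered 86.9% and 98% of these, with 5.21% false calls. With so few changed genes, the simulation does not test scaling or false calls where 59.5% of tested genes pass, as in these data. Depth is given with the results.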

Additional observations from a re-analysis of the deposited data

How the results depend on the processing

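The log2-fold changes of NDRG1 (4.25 to 4.53) and NDRG4 (2.29 to 3.22) kept their direction under all 15 alternatives and moved by less than the spread between replicates. NDRG3 and NDRG2 also stayed negative under all 15, and upper-quartile factors moved them to -0.24 and -0.037. With libraries left out, singly or by replicate number, NDRG3 ranged from -0.42 to -0.38, NDRG2 from -0.27 to -0.12, and the share of NDRG1 in the family from 13.1% to 14.5% in normoxia and from 80.5% to 81.9% in hypoxia. The replicate block gave log2-fold changes of 4.37, -0.19, -0.40 and 2.82 for NDRG1 to NDRG4 and passed the same 3 members. Its standard errors for them were smaller than in the main fit, at 0.09, 0.10, 0.05 and 0.39. Of all tested genes, 5733 were higher and 5511 lower with the block, against 4765 and 4551 without it. With it 22 companions, 11 regulators, 12 kinases and 10 partners passed, and among the named genes it changed the calls of MYC and TPI1 and of no other listed gene named in the text.

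In those same fits with libraries left out, 2648 to 5751 genes were higher and 2191 to 5506 lower, the fewest without both libraries of replicate 1. The genes passing ranged from 5 to 12 among the kinases, 4 to 10 among the partners, 7 to 12 among the regulators and 21 to 22 among the hypoxia-induced companions. Without the low count filter the median over all 22214 genes tested was 0.18. Depth limits genes with few counts, among them NDRG4, MYCN, LDHB, SGK1, SGK2 and SGK3.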
